A study of Mus musculus with 12 samples.

Results

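Focal adhesions are the sites where a cell fixes its actin cytoskeleton to the matrix, and the transcripts of 9 genes that build or crosslink this link were followed here across 12 microarrays of mouse neural progenitor cells. The genes were vinculin (Vcl), talin 1 (Tln1), filamin A (Flna), filamin C (Flnc), the α-actinins Actn1 and Actn4, paxillin (Pxn), the paxillin relative Hic-5 (Tgfb1i1) and the filamin A-interacting protein 1-like gene (Filip1l). They were taken by name through the RefSeq transcript that the array files give for each probe. All 9 were found, on 12 of the 28026 probes that received a gene name and among 21154 named genes. Vcl, Tln1 and Tgfb1i1 had 2 probes each, and the brighter probe on average over the arrays stood for the gene in counts.

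The study asked how serum response factor (Srf) and actin act on cell identity, and its arrays compared forced expression of Srf or of its cofactor Mkl1, and loss of β-actin, with matched controls. All cells were mouse neural progenitors differentiated in culture, kept on gelatin with EGF and bFGF, infected with a retrovirus and, per the methods, selected with puromycin. In the overexpression experiment the retrovirus carried EGFP, a fluorescent protein that served as the control, or Mkl1, or Srf. In the knockdown experiment the virus encoded a hairpin RNA: shEGFP, aimed at EGFP, as the control, or shActb_1 or shActb_2, hairpins of different sequence against the β-actin gene Actb. Each of the 6 groups had 2 arrays. The methods describe transgenes in pMXs vectors and hairpins under an H1 promoter, and give the progenitors of the molecular analyses as the line NSEB5-2C or its derivative N31, which carries doxycycline-dependent reprogramming factors, without saying which of the pair was on the arrays.

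At a focal adhesion, talin binds the inner tail of integrins and is stretched by actin, vinculin binds the opened talin and ties it to more actin, and paxillin and Hic-5 are scaffolds that recruit signalling proteins. Filamins and α-actinins crosslink actin filaments into networks and bundles. Srf is a transcription factor that binds a DNA element called the CArG box, and its cofactor Mkl1 is held in the cytoplasm by monomeric actin, so genes of the actin cytoskeleton and of adhesions are classic targets of the pair. In neural progenitors these proteins anchor the cell to its culture surface or tissue matrix.

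The CArG box (CC, then 6 bases that are A or T, then GG, a pattern that reads as the same pattern on both strands) was searched in the RefSeq promoter windows of GRCm38.p6, which run from 250 bases before to 50 bases after each transcription start. Windows were at hand for 7 of the 9 genes, 9 windows in all, with Flnc and Filip1l having 2 starts each, while Pxn and Tgfb1i1 had none. A CArG box lay in 2 of the 9 windows (22.2%), against 535 of all 32851 windows (1.63%). Its first base was 227 bases before the Vcl start and 62 bases before the second Filip1l start. The windows of Tln1, Flna, Flnc, Actn1, Actn4 and the first Filip1l start did not hold these letters. The 250 bases before the start are shown for both genes because theirs were the only windows with the box, at chr14:20929148-20929397 and chr16:57548992-57549241 on the plus strand, with the CArG box in capitals.
Vcl: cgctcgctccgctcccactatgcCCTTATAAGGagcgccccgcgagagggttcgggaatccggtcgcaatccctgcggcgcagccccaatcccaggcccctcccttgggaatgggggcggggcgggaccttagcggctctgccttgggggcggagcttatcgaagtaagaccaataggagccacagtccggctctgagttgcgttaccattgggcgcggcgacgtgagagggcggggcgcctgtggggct
Filip1l: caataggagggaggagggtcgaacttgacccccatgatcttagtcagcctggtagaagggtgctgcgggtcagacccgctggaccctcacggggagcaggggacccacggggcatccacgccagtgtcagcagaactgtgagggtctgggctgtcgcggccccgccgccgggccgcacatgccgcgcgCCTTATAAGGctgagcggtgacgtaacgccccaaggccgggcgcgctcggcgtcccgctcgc
The same 10 letters stood in both promoters. A match is a description of the sequence and was not tested as a binding site.

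**Figure D1:**
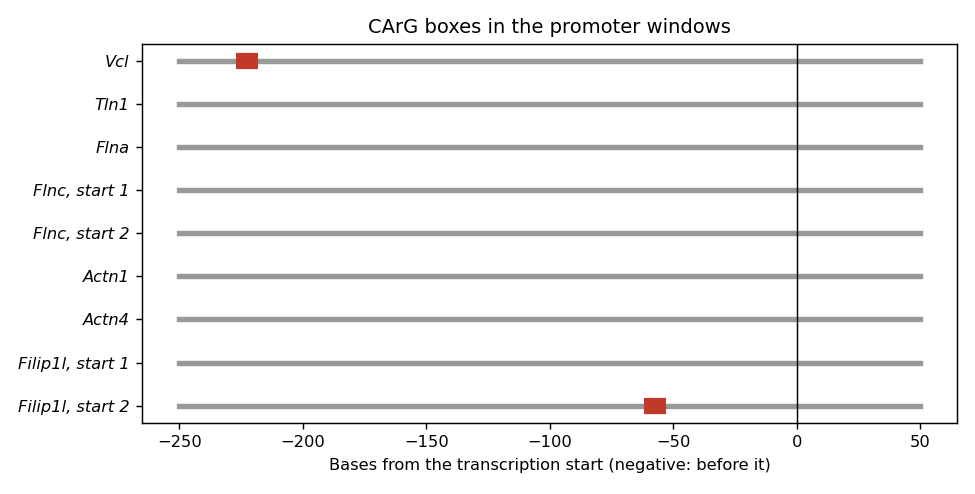
Position of CArG boxes (red) in the promoter windows of 7 of the genes, in bases from the transcription start. Grey lines are the windows, and the only boxes are those 227 bases before the Vcl start and 62 bases before the second Filip1l start.

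Levels are given as the log2 of the processed spot signal minus the 75th percentile of the array, so that a difference of 1 is a 2-fold change. Levels of different probes cannot be set against each other on this scale. The 75th percentile signal lay between 843 and 1150, 59.3% to 72.4% of probes were well above background on an array, and no spot was saturated. Duplicate arrays correlated at r = 0.993 to 0.998, and the genes' largest difference within a pair was 0.62, for Actn1 in EGFP. The study calls the array duplicates of the Actb knockdown technical, so the tests measure array-to-array spread and their precision is limited by 2 arrays per group. Of 14 neural progenitor markers, 10 to 12 were well above background in each group, and Ptprz1 and Olig2 were not in any. Actb fell by 0.53 with shActb_1 (SE 0.05, adjusted p = 0.00128) and by 0.65 with shActb_2 (SE 0.05, adjusted p = 0.000196). Both Srf probes fell on the arrays labelled Srf, by 2.46 (SE 0.06, adjusted p = 2.54e-06) and 1.40 (SE 0.13, adjusted p = 0.000266), and the position of both probes in relation to the transgene is not known here. The Mkl1 probes (named Mrtfa) differed by 0.20 (SE 0.08, adjusted p = 0.120) and 0.17 (SE 0.11, adjusted p = 0.312) on the Mkl1 arrays. The same Srf probes rose by 0.71 and 1.18 on the Mkl1 arrays, by 0.90 and 0.60 with shActb_1 and by 0.97 and 0.75 with shActb_2. The targeted gene thus read lower, not higher, on the arrays labelled Srf. Neither Mkl1 probe passed the test on the arrays labelled Mkl1. Directions below belong to the arrays so labelled. Per the file headers, EGFP, Mkl1 and Srf shared a slide, shEGFP and shActb_1 shared another, and shActb_2 lay alone on a slide. The effect of shActb_2 thus cannot be told apart from that of its slide. Both EGFP arrays lay in row 2 of their slide and the Mkl1 and Srf arrays in row 1. Differences from EGFP therefore cannot be told apart from those between the rows.

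**Figure D2:**
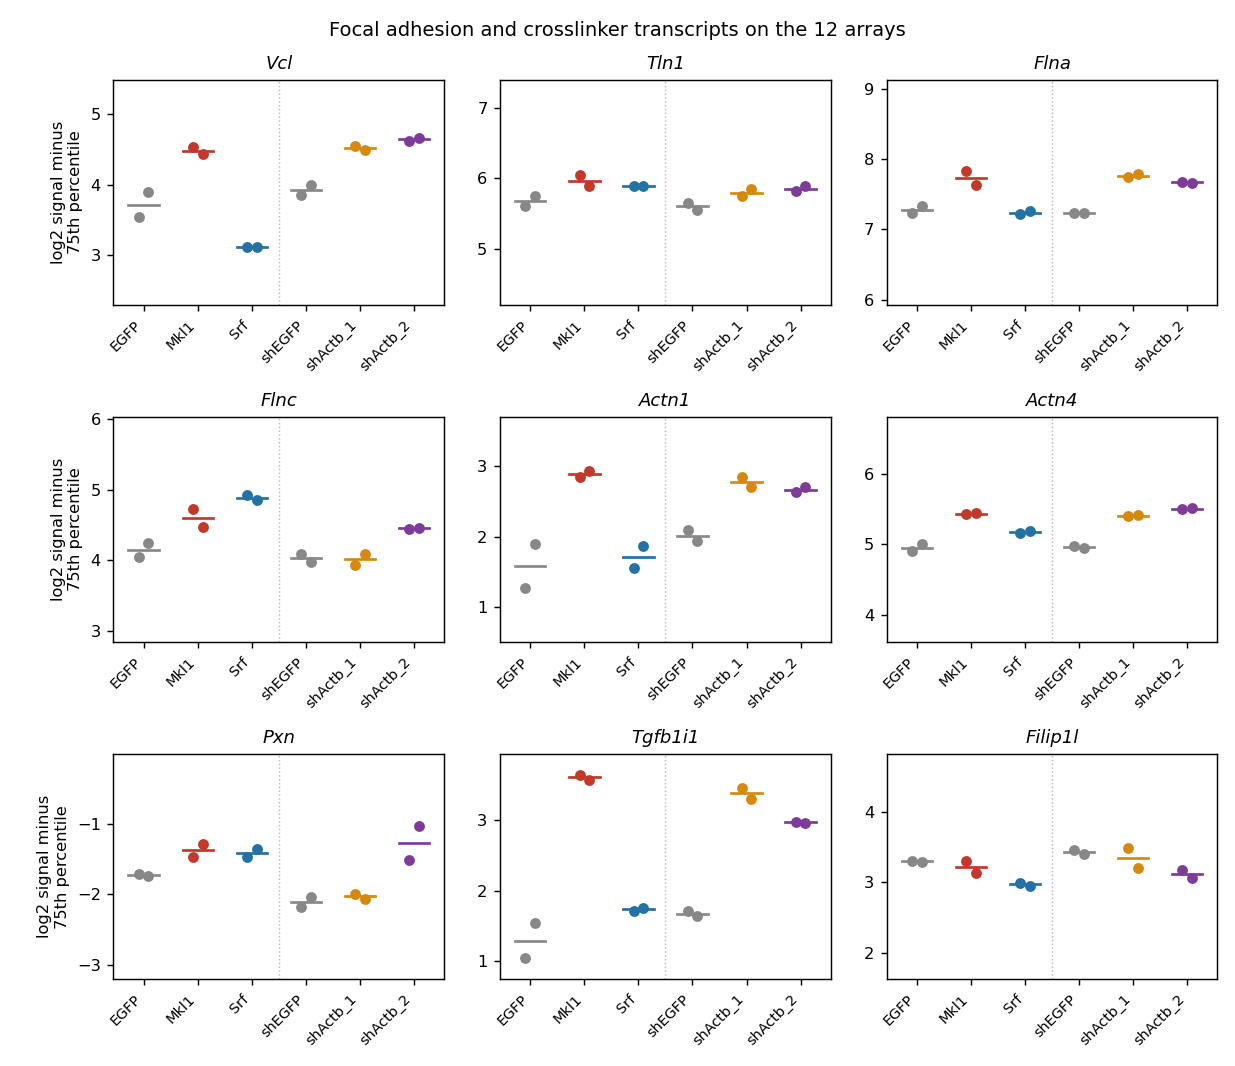
Level of each gene (log2 signal minus the array's 75th percentile) on the 12 arrays. Points are arrays, horizontal lines are group means of 2 arrays, all panels span the same number of log2 units, and the dotted line separates the overexpression from the knockdown experiment. Tgfb1i1 sat at 3.58 and 3.64 on the Mkl1 arrays, against 1.04 and 1.54 on the EGFP arrays, while Filip1l varied little.

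On the Mkl1 arrays most of the adhesion and crosslinker transcripts were higher than on the EGFP arrays. Tgfb1i1, a LIM-domain scaffold, was 4.99-fold higher and the crosslinker Actn1 was 2.47-fold higher. The vinculin, talin, filamin and Actn4 transcripts were between 1.22-fold and 1.70-fold higher. In limma's test with Benjamini-Hochberg adjustment over all probes tested, 7 of the 9 genes rose (Vcl, Tln1, Flna, Flnc, Actn1, Actn4 and Tgfb1i1), where 17.7% of all named genes tested rose. None fell, at an unadjusted p under 0.05 either, where 11.3% of named genes fell. Of the 9, 2 rose by over 2-fold, where 1.88% of named genes rose and 1.96% fell by that much. Without EGFP replicate 1 the Actn1 difference was 0.99, just under 2-fold, and it ran up to 1.61 with another array left out. Their median difference was 0.45, and that of all named genes was 0.02. With only the 4 compared arrays in the fit 0 of the 9 passed, and their adjusted p then lay between 0.0561 and 0.239 for the 7 genes. The Tln1 call was lost without EGFP replicate 1 or either Mkl1 array (difference 0.22 to 0.36), and the Flnc call without EGFP replicate 1 or Mkl1 replicate 1 (difference 0.33 to 0.36), and both were lost after quantile normalization (0.20 and 0.36) or without a filter on dim probes.

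With either Actb hairpin the same direction prevailed. Tgfb1i1 was 3.26-fold higher with shActb_1 and 2.46-fold higher with shActb_2 than with shEGFP. Vcl, Flna and Actn4 were 1.35-fold to 1.64-fold higher. With shActb_1, 4 of the 9 genes rose (Vcl, Flna, Actn4 and Tgfb1i1), where 7.79% of named genes rose, and none fell, at an unadjusted p under 0.05 either, where 6.17% of named genes fell. With shActb_2, 8 of the 9 rose, where 28.2% of named genes rose, and Filip1l fell, where 16.3% did. Tgfb1i1 rose by over 2-fold with each hairpin, where 0.746% of named genes did with shActb_1 and 2.4% with shActb_2, and none of the 9 fell by as much, where 1.65% and 3.36% did. The median difference of the 9 genes was 0.45 with shActb_1 and 0.55 with shActb_2, and that of all named genes was 0.02 and 0.07. Under quantile normalization the medians of the 9 genes were 0.34 and 0.35, and those of all named genes -0.0047 and 0.01. After quantile normalization 4 of the 9 rose with shActb_2 (Vcl, Actn4, Pxn and Tgfb1i1), where 19.4% of named genes rose under that scaling, the compared arrays alone left 2 with shActb_1 (Flna and Tgfb1i1) and ended the Tln1 and Pxn calls with shActb_2, and a fit without a filter on dim probes ended the Vcl call with shActb_1 and the Tln1, Actn1 and Filip1l calls with shActb_2. Leaving out any 1 of the 4 arrays ended the Vcl call with shActb_1 (difference 0.52 to 0.66) and the Tln1 (0.21 to 0.30), Actn1 (0.58 to 0.73) and Filip1l (-0.37 to -0.25) calls with shActb_2, and the Flnc call with shActb_2 was lost without shEGFP replicate 2 or either shActb_2 array (0.36 to 0.43).

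On the arrays labelled Srf the genes went in different directions. Flnc was 1.67-fold higher and Vcl 1.52-fold lower than on the EGFP arrays, and Actn4 was 1.17-fold higher. Of the 9 genes, 2 rose (Flnc and Actn4), where 17.4% of named genes rose, and 1 fell (Vcl), where 16.5% fell. None changed by over 2-fold, where 4.4% of named genes rose and 2.61% fell by that much. The median difference of the 9 genes was 0.21, and that of all named genes was -0.01. The Vcl and Flnc calls held under 12 of 13 other settings and were lost with only the compared arrays in the fit (adjusted p = 0.109 for Vcl and 0.0516 for Flnc, the highest of their settings, the lowest being 0.000649 and 9.64e-05). The Actn4 call was also lost without a filter on dim probes and without EGFP replicate 1 or either Srf array (difference 0.17 to 0.23).

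**Figure D3:**
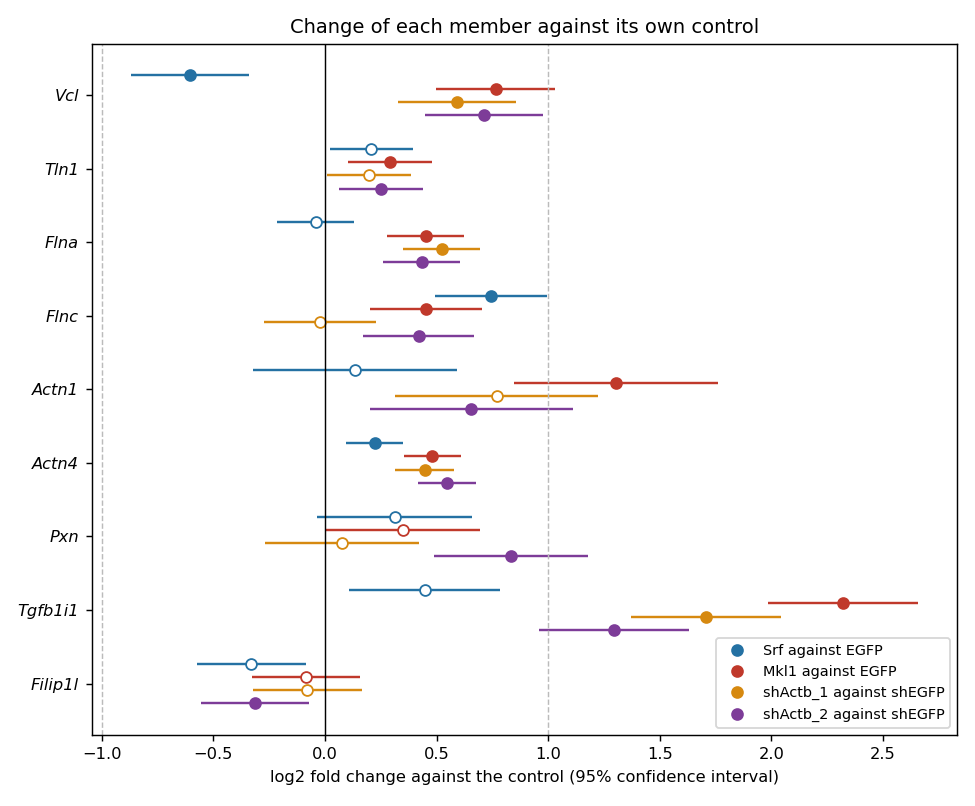
Difference of each gene from its own control (log2 fold change) with its 95% confidence interval from limma, 2 arrays per group. Filled points passed an adjusted p of 0.05 and open points did not, and dashed lines mark a 2-fold change. Vcl is the gene with called differences on both sides of 0, at -0.60 on the arrays labelled Srf and 0.59 to 0.76 in the other comparisons.

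Among the linkers, Vcl, whose product ties talin to actin, read 3.54 and 3.90 on the EGFP arrays, 4.53 and 4.44 on the Mkl1 arrays and 3.11 and 3.12 on the arrays labelled Srf. In the knockdown experiment it read 3.86 and 4.00 with shEGFP, 4.55 and 4.50 with shActb_1 and 4.62 and 4.67 with shActb_2. No treated array overlapped its control arrays, with the arrays labelled Srf below and the others above. In the order of levels, the arrays labelled Srf came lowest, then EGFP and shEGFP, whose ranges overlapped. Mkl1 and shActb_1 followed, with overlapping ranges, and then shActb_2. Vectors, controls and slides differed between the experiments, so the order across them is a description only. Vcl rose by 0.76 on the Mkl1 arrays (SE 0.11, adjusted p = 0.00416), by 0.59 with shActb_1 (SE 0.11, adjusted p = 0.0186) and by 0.71 with shActb_2 (SE 0.11, adjusted p = 0.00256). It fell by 0.60 on the arrays labelled Srf (SE 0.11, adjusted p = 0.00753). A second and dimmer Vcl probe moved in the same directions, by -0.52 (SE 0.10, adjusted p = 0.00874) on the arrays labelled Srf, 0.76 (SE 0.10, adjusted p = 0.00265) on the Mkl1 arrays, 0.50 (SE 0.10, adjusted p = 0.0226) with shActb_1 and 0.99 (SE 0.10, adjusted p = 0.000466) with shActb_2. Without Srf replicate 1 the difference of the second probe was -0.44 and no longer passed, and its shActb_1 call was lost with any 1 of the 4 arrays left out (0.43 to 0.57, adjusted p = 0.0682 to 0.145). Because RNA was taken from whole cultures, fewer cells of a kind and less RNA per cell cannot be told apart, here and below.

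Tln1, whose product couples integrins to vinculin, varied far less. It read 5.61 and 5.75 on the EGFP arrays, 6.04 and 5.90 on the Mkl1 arrays and 5.89 on both arrays labelled Srf. In the knockdown experiment the shEGFP arrays read 5.65 and 5.56, the shActb_1 arrays 5.75 and 5.85 and the shActb_2 arrays 5.83 and 5.89. Every treated array lay above its controls, but by a small amount. Tln1 rose by 0.29 on the Mkl1 arrays (SE 0.08, adjusted p = 0.0403) and by 0.25 with shActb_2 (SE 0.08, adjusted p = 0.0402), the latter passing under 4 of 13 other settings, with 0.07 and an adjusted p of 0.590 after quantile normalization. Its difference was 0.20 with shActb_1 (SE 0.08, adjusted p = 0.202) and 0.21 in the Srf comparison (SE 0.08, adjusted p = 0.0982). The second Tln1 probe disagreed in that it was dim, between -2.44 and -1.65 over all arrays, and its differences of -0.01 to 0.38 passed in no comparison with a control, and with both probes averaged Tln1 passed in none of these comparisons either.

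Among the crosslinkers, Flna, the filamin that joins actin filaments at wide angles, read 7.23 and 7.33 on the EGFP arrays, 7.83 and 7.63 on the Mkl1 arrays and 7.22 and 7.26 on the arrays labelled Srf. With shEGFP it read 7.24 on both arrays, with shActb_1 7.74 and 7.78 and with shActb_2 7.68 and 7.67. The Mkl1 and hairpin arrays lay above their controls, and the arrays labelled Srf overlapped EGFP. Flna rose by 0.45 on the Mkl1 arrays (SE 0.07, adjusted p = 0.00605), by 0.52 with shActb_1 (SE 0.07, adjusted p = 0.00577) and by 0.43 with shActb_2 (SE 0.07, adjusted p = 0.00344). The shActb_2 difference was 0.14 and did not pass after quantile normalization. In the Srf comparison the difference was -0.04 (95% interval -0.21 to 0.13, adjusted p = 0.710).

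Flnc is the filamin best known from striated muscle. It read 4.05 and 4.24 on the EGFP arrays, 4.72 and 4.48 on the Mkl1 arrays and 4.93 and 4.85 on the arrays labelled Srf. The level was 4.09 and 3.97 with shEGFP, 3.94 and 4.08 with shActb_1 and 4.44 and 4.46 with shActb_2. Its highest levels in the overexpression experiment were thus on the arrays labelled Srf, and shActb_1 overlapped its control. Flnc rose by 0.74 on the arrays labelled Srf (SE 0.11, adjusted p = 0.00232), by 0.45 on the Mkl1 arrays (SE 0.11, adjusted p = 0.0239) and by 0.42 with shActb_2 (SE 0.11, adjusted p = 0.0178). The shActb_2 difference was 0.24 and did not pass after quantile normalization. With shActb_1 the difference was -0.02 (95% interval -0.27 to 0.23, adjusted p = 0.959).

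The α-actinins bundle actin filaments and bind vinculin and integrins. Actn1 read 1.27 and 1.89 on the EGFP arrays, 2.84 and 2.93 on the Mkl1 arrays and 1.56 and 1.87 on the arrays labelled Srf. With shEGFP it read 2.09 and 1.93, with shActb_1 2.85 and 2.71 and with shActb_2 2.63 and 2.71. The EGFP arrays were the least alike pair, and those labelled Srf lay between them. Actn1 rose by 1.30 on the Mkl1 arrays (SE 0.20, adjusted p = 0.00426) and by 0.66 with shActb_2 (SE 0.19, adjusted p = 0.0309). Its difference was 0.77 with shActb_1 (SE 0.19, adjusted p = 0.0503, passing under 3 of 13 other settings whose adjusted p ran from 0.0117 to 0.235) and 0.13 in the Srf comparison (SE 0.20, adjusted p = 0.642). Actn4 had tighter pairs, at 4.90 and 5.0 on the EGFP arrays, 5.43 and 5.44 on the Mkl1 arrays and 5.16 and 5.19 on the arrays labelled Srf. The knockdown arrays read 4.97 and 4.94 with shEGFP, 5.40 and 5.41 with shActb_1 and 5.49 and 5.51 with shActb_2. All treated arrays lay above their controls, those labelled Srf by the least. Actn4 rose by 0.48 on the Mkl1 arrays (SE 0.06, adjusted p = 0.00158), 0.45 with shActb_1 (SE 0.06, adjusted p = 0.00352), 0.55 with shActb_2 (SE 0.06, adjusted p = 0.000478) and 0.22 in the Srf comparison (SE 0.06, adjusted p = 0.0230).

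Among the scaffolds, Tgfb1i1 (Hic-5, a LIM-domain protein that shuttles between adhesions and the nucleus) moved most. It read 1.04 and 1.54 on the EGFP arrays, 3.64 and 3.58 on the Mkl1 arrays and 1.72 and 1.75 on the arrays labelled Srf. Against 1.71 and 1.64 with shEGFP, it read 3.46 and 3.31 with shActb_1 and 2.98 and 2.97 with shActb_2. The Mkl1 arrays and, by less, the arrays labelled Srf lay above the EGFP arrays. In the knockdown experiment shActb_1 was highest, followed by shActb_2 and shEGFP, with no overlap between these groups. Tgfb1i1 rose by 2.32 on the Mkl1 arrays (SE 0.14, adjusted p = 0.000167), by 1.71 with shActb_1 (SE 0.14, adjusted p = 0.000687) and by 1.30 with shActb_2 (SE 0.14, adjusted p = 0.000632). In the Srf comparison its difference was 0.45 (SE 0.14, adjusted p = 0.0590), which passed under 5 of 13 other settings (adjusted p = 0.00174 to 0.382) and ran from 0.20 without EGFP replicate 1 to 0.70 without EGFP replicate 2. The second Tgfb1i1 probe was close to background, with only 1 of 2 arrays well above it in EGFP, shEGFP and shActb_2, and passed in none of the comparisons in which it was tested, which leave out shActb_2 against shEGFP. With both probes averaged the 2 hairpin differences were 1.74 and 1.17 and did not pass.

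Pxn, the archetypal adhesion scaffold, had a dim probe that was well above background on every array. It read -1.71 and -1.74 on the EGFP arrays, -1.46 and -1.29 on the Mkl1 arrays and -1.47 and -1.35 on the arrays labelled Srf. With shEGFP it read -2.18 and -2.03, with shActb_1 -2.0 and -2.06 and with shActb_2 -1.51 and -1.03. The shActb_2 arrays stood above their controls but were also the Pxn pair that differed most. Pxn rose by 0.83 with shActb_2 (SE 0.15, adjusted p = 0.00404). Its difference was 0.35 on the Mkl1 arrays (SE 0.15, adjusted p = 0.140), 0.31 in the Srf comparison (SE 0.15, adjusted p = 0.167) and 0.08 with shActb_1 (SE 0.15, adjusted p = 0.861). Filip1l, named for its likeness to a filamin A-binding protein, read 3.30 and 3.29 on the EGFP arrays, 3.30 and 3.12 on the Mkl1 arrays and 2.99 and 2.95 on the arrays labelled Srf. With shEGFP it read 3.45 and 3.40, with shActb_1 3.49 and 3.20 and with shActb_2 3.17 and 3.05. It was the 1 gene of the 9 whose mean lay above that of its control in no comparison. Filip1l fell by 0.31 with shActb_2 (SE 0.10, adjusted p = 0.0464), and its differences were -0.33 on the arrays labelled Srf (SE 0.10, adjusted p = 0.0544, passing under 4 of 13 other settings whose adjusted p ran from 0.0162 to 0.213), -0.09 on the Mkl1 arrays (SE 0.10, adjusted p = 0.589) and -0.08 with shActb_1 (SE 0.10, adjusted p = 0.771). Set beside the promoters above, the pair with a CArG box in the window were Vcl, which rose on the Mkl1 arrays and with both hairpins and fell on the arrays labelled Srf, and Filip1l, which did not rise.

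The treatments were then set against each other, since a gene called in 1 comparison and not in another is not thereby shown to differ. Compared with the Mkl1 arrays, 5 of the 9 genes were lower on the arrays labelled Srf, where 20% of named genes were lower, and 3 of them by over 2-fold, where 2.47% were. Vcl was lower by 1.37 (SE 0.11, adjusted p = 0.000165), Tgfb1i1 by 1.87 (SE 0.14, adjusted p = 0.000117), Actn1 by 1.17 (SE 0.19, adjusted p = 0.00415), Flna by 0.49 (SE 0.07, adjusted p = 0.00255) and Actn4 by 0.26 (SE 0.06, adjusted p = 0.0127). None was higher in limma's test, where 14.4% of named genes were and 4.76% by over 2-fold, and 1 was at an unadjusted p under 0.05, namely Flnc at 0.29 (95% interval 0.04 to 0.54, adjusted p = 0.0897). The Actn4 call was lost with any 1 of the 4 arrays left out (difference -0.27 to -0.25), after quantile normalization (-0.15), without a filter on dim probes and with the compared arrays only, and the Tgfb1i1 call with both its probes averaged (-1.15).

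Between the hairpins, 2 of the 9 genes were higher with shActb_2, where 21% of named genes were, and none lower in limma's test, where 12.4% were. No difference exceeded 2-fold, where 2.29% of named genes were higher and 2.01% lower by that much. Flnc was higher by 0.44 (SE 0.11, adjusted p = 0.0185) and Pxn by 0.76 (SE 0.15, adjusted p = 0.00810). Tgfb1i1 was the 1 gene lower at an unadjusted p under 0.05, with a difference of -0.41 (95% interval -0.75 to -0.08, adjusted p = 0.0639), which passed under 5 of 13 other settings (adjusted p = 0.0196 to 0.390). For Vcl the interval of the hairpin difference ran from -0.14 to 0.39 and for Flna from -0.26 to 0.08. The Flnc call was lost without shActb_1 replicate 1 or either shActb_2 array (difference 0.37 to 0.45) and the Pxn call with the compared arrays only, and here too the hairpins lay on different slides.

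The response to Mkl1 was also set against the mean response to both hairpins, each relative to its own control. None of the 9 genes differed in limma's test, where 1.69% of named genes differed upwards and 1.89% downwards (0.603% and 0.404% by over 2-fold), and 1 did at an unadjusted p under 0.05. That gene was Tgfb1i1, whose response to Mkl1 was larger by 0.82 (SE 0.19, 95% interval 0.37 to 1.27, adjusted p = 0.0756). The interval was -0.24 to 0.47 for Vcl, -0.26 to 0.21 for Flna, -0.19 to 0.16 for Actn4 and -0.02 to 1.20 for Actn1. The Tgfb1i1 difference was 0.57 without EGFP replicate 1 and 1.07 without EGFP replicate 2. Over left-out arrays the Actn1 difference ran from 0.28 to 0.90, the latter without EGFP replicate 2. With all arrays kept, Tgfb1i1 passed limma's test with normexp, the all-array filter and the variance trend (adjusted p = 0.0154 to 0.0426). Its adjusted p reached 0.842 over the alternatives, and that of Actn1 0.509.

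**Figure D4:**
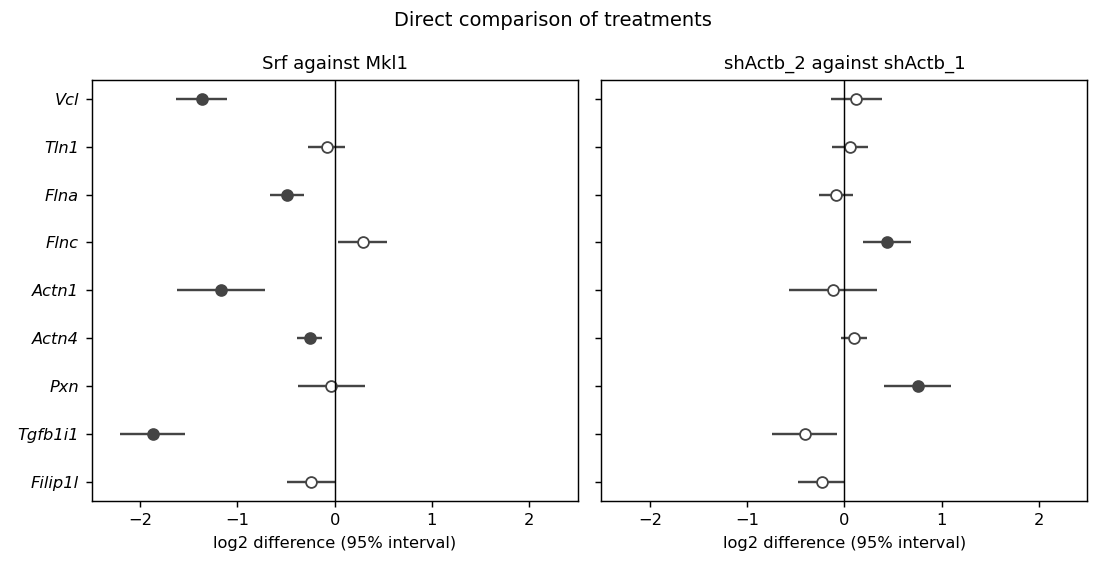
Direct comparison of treatments for each gene as the log2 difference with its 95% confidence interval (limma, 2 arrays per group). Filled points passed an adjusted p of 0.05. Vcl, Flna, Actn1, Actn4 and Tgfb1i1 lie left of 0 in the left panel (Srf against Mkl1), and Flnc and Pxn lie right of 0 in the right panel (shActb_2 against shActb_1).

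The partners of these proteins were described as a list of 49 other focal adhesion genes (integrins, kindlins, parvins, kinases, adaptors and LIM proteins). On the Mkl1 arrays 25 of 47 tested rose and 4 fell, with a median of 0.32. The integrin subunits Itga5 (1.25, SE 0.15) and Itgb3 (1.19, SE 0.12) and the docking protein Nedd9 (1.09, SE 0.08) rose most, and Asap1 (-0.43, SE 0.07), Itgb5 (-0.38, SE 0.07) and Kank2 (-0.38, SE 0.06) fell most. With shActb_1 12 of 47 rose and 2 fell, with a median of 0.18. Itgb3 (1.25, SE 0.12), the kindlin Fermt2 (0.80, SE 0.09) and the actin-binding Nexn (0.71, SE 0.06) rose most, and Itgb5 (-0.39, SE 0.07) and Asap1 (-0.30, SE 0.07) fell. With shActb_2 19 of 47 rose and 5 fell, with a median of 0.17. The β-parvin Parvb (0.87, SE 0.12), Itga5 (0.79, SE 0.15) and Rsu1 (0.73, SE 0.08) rose most, and Itgb5 (-0.82, SE 0.07), Git2 (-0.54, SE 0.10) and Lims1 (-0.37, SE 0.09) fell most. In the Srf comparison 13 of 48 rose and 7 fell, with a median of 0.12. Lims2 (3.36, SE 0.49) and Itga5 (1.01, SE 0.15) rose most, and the kinase Pak1 (-1.02, SE 0.11), Asap1 (-0.91, SE 0.07) and the LIM protein Tes (-0.60, SE 0.05) fell most. These counts stand beside the shares of all named genes given above for each comparison. After quantile normalization 12 rose and 6 fell with shActb_2 (median 0.08), where 19.4% of all named genes rose and 16.4% fell (median 0.01), and with shActb_1 9 rose and 3 fell (median 0.11), where 5.38% rose and 6.54% fell.

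A list of 42 other actin crosslinkers and bundlers was described likewise. On the Mkl1 arrays 15 of 37 tested rose and 2 fell (median 0.24), with the bundler L-plastin Lcp1 (2.83, SE 0.19), the filamin-binding Fblim1 (1.69, SE 0.06) and Xirp1 (1.02, SE 0.27) rising most and Synpo2 (-0.73, SE 0.12) and Marcks (-0.72, SE 0.09) falling. With shActb_1 5 of 35 rose and 1 fell (median 0.10), with Fblim1 (1.50, SE 0.07), Lcp1 (1.33, SE 0.19) and the bundler Pls3 (0.48, SE 0.06) rising most and Marcks (-0.50, SE 0.09) falling. With shActb_2 13 of 36 rose and 6 fell (median 0.24), with Lcp1 (1.18, SE 0.19), Fblim1 (1.07, SE 0.06) and the formin Fmn1 (0.80, SE 0.11) rising most and Ldb3 (-0.47, SE 0.14), Ablim1 (-0.47, SE 0.10) and Marcks (-0.42, SE 0.09) falling most. In the Srf comparison 10 of 37 rose and 8 fell (median 0.03), with the muscle α-actinin Actn3 (2.32, SE 0.16), Afap1l1 (1.33, SE 0.14) and Lcp1 (1.11, SE 0.19) rising most and Synpo2 (-1.42, SE 0.12) and the neuronal drebrin Dbn1 (-0.60, SE 0.09) falling most. Of all named genes, 17.7% rose and 11.3% fell with Mkl1, 7.79% and 6.17% with shActb_1, 28.2% and 16.3% with shActb_2 and 17.4% and 16.5% in the Srf comparison. After quantile normalization 9 of the crosslinkers rose and 5 fell with shActb_2 (median 0.10), and 4 rose and 2 fell with shActb_1 (median 0.05), beside the shares of all named genes given above under that scaling.

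**Figure D5:**
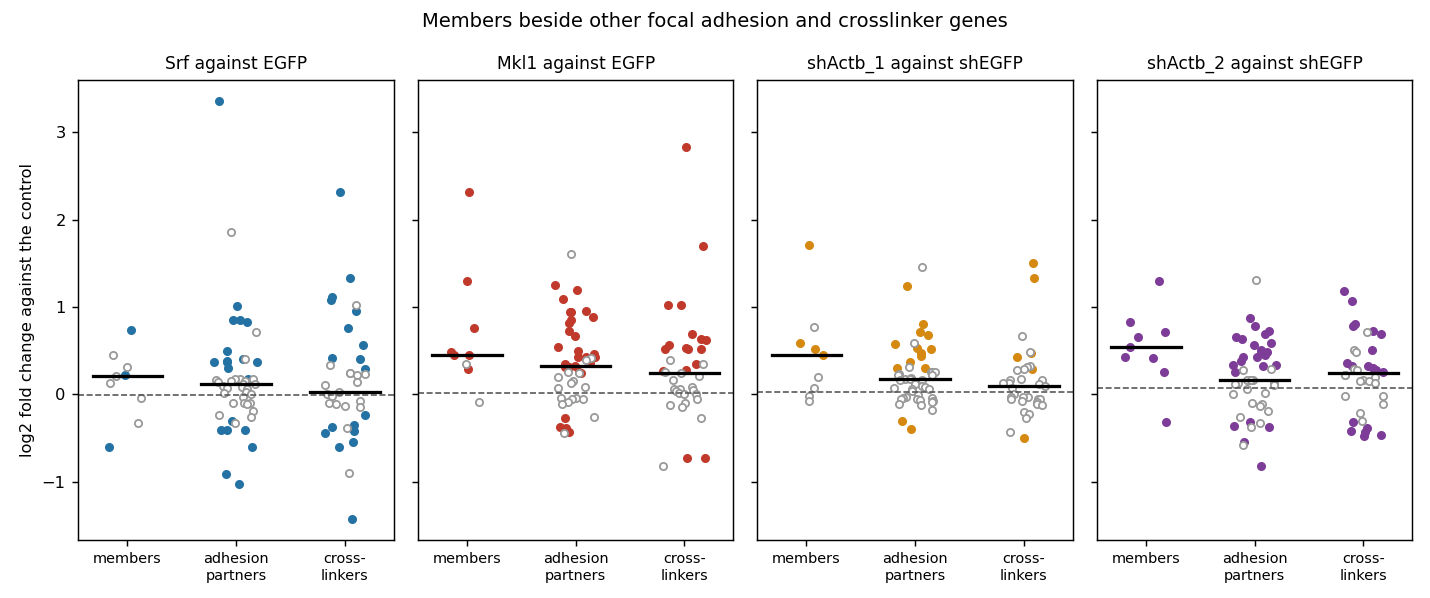
Difference from the control (log2 fold change) of the 9 genes, of other focal adhesion partners and of other crosslinkers and bundlers in the 4 comparisons with a control. Filled points passed an adjusted p of 0.05, thick lines are the medians of the genes tested, and the dashed line is the median of all named genes tested. The median of the 9 genes lies at 0.45, 0.45 and 0.55 for Mkl1, shActb_1 and shActb_2 and at 0.21 for the arrays labelled Srf.

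Levels minus the mean of the own control group were also compared between genes over the 12 arrays, as a description, since these arrays share controls and slides. Actn1 and Tgfb1i1 ran most alike among the 9 (r = 0.970), followed by Flna and Vcl (r = 0.901). Flnc ran apart from Vcl (r = -0.21) and from Flna (r = -0.0026), and Filip1l ran opposite to Pxn (r = -0.72) and Flnc (r = -0.70). For the 2 genes that changed by over 2-fold in a comparison with a control, the most similar were sought among 3604 named genes well above background on all arrays. Ubald1 (r = 0.979), Tgfb1i1 (r = 0.970) and Card10 (r = 0.963) were most like Actn1. Card10 (r = 0.982) and calponin Cnn1 (r = 0.972) were among the 3 most like Tgfb1i1.

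Markers of other cell types moved with some of these results. Of 12 smooth or striated muscle markers, 4 were well above background in each control group, 6 with Mkl1, 7 on the arrays labelled Srf, 5 with shActb_1 and 8 with shActb_2. The log2 of their summed level was 3.64 to 3.85 on the EGFP arrays, 4.55 to 4.57 on the Mkl1 arrays and 3.98 to 4.07 on the arrays labelled Srf. It was 3.28 to 3.37 with shEGFP, 3.88 to 3.92 with shActb_1 and 4.04 to 4.10 with shActb_2. The defining genes Myocd, Lmod1, Myog and Myf5 were not well above background in any group, and Myod1 was well above it with shActb_2 alone. In limma's test with Benjamini-Hochberg adjustment, 4 of 7 tested rose and 0 fell in the Srf comparison (median 0.81). With Mkl1 3 of 6 rose and 1 fell (median 0.64). With shActb_1 3 of 5 rose and 0 fell (median 0.38), and with shActb_2 4 of 8 rose and 1 fell (median 0.65). Actc1 rose by over 2-fold in each of the 4 comparisons, and Myh11 in all but that of shActb_1, where it was not tested. Smtn did so with Mkl1 and shActb_2, and Synm on the arrays labelled Srf. Actc1, Myh11 and Synm were not well above background in either control group, so they entered these tests through the treated group alone. The summed level of 8 macrophage or microglia markers was 3.16 to 3.23 on the EGFP arrays and 3.89 to 3.96 on the arrays labelled Srf, with Tyrobp and Lyz2 not well above background in any group. Gene by gene, 3 of 6 tested rose and 1 fell in the Srf comparison (median 0.16), 1 rose and 2 fell with Mkl1 (median -0.27), 0 passed with shActb_1 (median -0.18), and Ptprc and Adgre1 fell by over 2-fold with shActb_2 and none rose (median -0.35). The summed level of 12 fibroblast or mesenchymal markers was lower than on EGFP (7.53 to 7.55) on the Mkl1 arrays (6.76 to 7.01) and those labelled Srf (6.76 to 6.81), and lower than with shEGFP (7.20 to 7.28) with shActb_1 (6.82 to 6.94) and shActb_2 (6.49 to 6.55). Gene by gene the Srf comparison was mixed, with 4 of 11 tested rising, 4 falling and a median difference of 0.21, whereas 7 of 10 fell and 1 rose with Mkl1 (median -0.82), 6 and 1 with shActb_1 (median -0.50) and 7 and 1 with shActb_2 (median -0.58). The summed level of 8 neuron markers was 3.89 to 3.93 on the EGFP arrays, 3.33 to 3.46 on the Mkl1 arrays and 3.56 to 3.64 on the arrays labelled Srf, and it was 3.96 to 4.14 with shEGFP, 3.58 to 3.68 with shActb_1 and 3.45 to 3.57 with shActb_2. Of 7 neuron markers tested, 2 rose and 2 fell in the Srf comparison, whereas none rose and 2 fell with Mkl1, 2 with shActb_1 and 3 with shActb_2. The summed level of 6 astrocyte markers was 1.51 to 1.64 on the EGFP arrays, 1.14 to 1.40 on the Mkl1 arrays and 2.27 to 2.32 on the arrays labelled Srf, and it was 1.86 to 1.91 with shEGFP, 0.90 to 1.05 with shActb_1 and 1.15 to 1.28 with shActb_2, with S100b, Gjb6 and Slc1a2 not well above background in any group. Of the 3 astrocyte markers tested, 1 rose and none fell in the Srf comparison although their median difference was -0.31, none passed with Mkl1 (median -0.31), and 1 fell with shActb_1 (median -0.15) and 2 with shActb_2 (median -0.70). The summed level of the 14 neural progenitor markers was 8.16 to 8.23 on the EGFP arrays, 8.35 to 8.41 on the Mkl1 arrays and 8.03 to 8.08 on the arrays labelled Srf, and it was 8.0 to 8.02 with shEGFP, 8.11 to 8.13 with shActb_1 and 8.52 to 8.53 with shActb_2. Their median difference went the other way from these sums in each comparison: it was -0.24 with Mkl1 (2 of 10 tested rose and 3 fell), -0.22 with shActb_1 (0 of 12 rose, and Slc1a3, Fabp7 and Sox2 fell, each by over 2-fold), -0.22 with shActb_2 (4 of 12 rose and 2 fell) and 0.07 in the Srf comparison (3 of 11 rose and 1 fell). For 8 pluripotent markers the summed level was 2.25 to 2.55 on the EGFP arrays, 1.98 to 1.99 on the Mkl1 arrays and 2.59 to 2.70 on the arrays labelled Srf. It was 2.40 with shEGFP, 2.19 to 2.29 with shActb_1 and 2.11 to 2.21 with shActb_2. In the Srf comparison 2 of 8 rose, Esrrb by over 2-fold, and 1 fell. With Mkl1 1 of 7 rose and 2 fell, with shActb_1 1 of 8 rose and 1 fell, and with shActb_2 1 of 8 rose and 2 fell. The part of these markers in the differences of the 9 genes was not tested.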

How the data were processed

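Total RNA of 12 samples was hybridized to 1-colour Agilent mouse arrays, 2 per group. The methods name an 8 × 60K format, which the 62976 features of each file fit, and the labels another. The authors quantified scans with Feature Extraction 11.5.1.1, and per the file headers the deposited intensity is a background-subtracted processed signal per spot. The deposited table of log2 values holds the same signals shifted by a constant per array (within 0.01 for 100% of probes, direction and log base settled by this match).

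After removal of control and outlier-flagged spots, spots of a probe were averaged, log2 was taken and each array's 75th percentile subtracted. Probe accessions were matched without versions to the GRCm38.p6 RefSeq table, used for names only (28026 of 55681 probes, 50.3%). The deposited files used here held 0 columns of samples outside the series. One linear model per probe over all 12 arrays (limma 3.58.1 in R 4.3.3, empirical Bayes) held a mean for each group, so that a group's own spread is assumed to be that of all groups. A probe entered a comparison if it was well above background on all arrays of any group compared (35408 to 36213 probes in the comparisons of 2 groups). A gene rose or fell at an adjusted p under 0.05, and changes over 2-fold were counted beside it. All tests were two-sided. The fit was also run on simulated data in which 200 probes were changed, and the outcome is not given here.

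The genes, lists and tests were chosen with earlier results of these data known. All 9 genes were named with all probes, from each list up to 3 largest rises and falls per comparison with a control, and for genes over 2-fold the 3 most similar by Pearson r that spanned at least 1 log2 unit, of which a few are not reported here. A summed marker level is the log2 of the sum of the markers' linear levels on an array. Promoter windows came from RefSeq. Alternatives were normexp background correction (offset 50, on median spot signals as means were not at hand), quantile normalization, the deposited log2 table, no filter and an all-array filter on dim probes, fits of the compared arrays only, a block for the replicate number, a variance trend with robust estimation, the mean of a gene's probes, each array left out, and a 2-fold criterion. The number of arrays limits the precision.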

Additional observations from a re-analysis of the deposited data

How the results depend on the processing

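Directions held under most settings, and counts of called genes moved more. On the arrays labelled Srf the count that rose (2) was 3 with normexp, quantile normalization and the all-array filter, and 4 with a variance trend. It was 1 without a filter on dim probes, and 0 with the compared arrays only and over 2-fold. The count that fell (1) was 2 with normexp, with the all-array filter and with the variance trend, and 0 with the compared arrays only and over 2-fold. For Mkl1 the count that rose (7) was 5 after quantile normalization, 0 with the compared arrays only and 2 over 2-fold. Its Tln1 and Flnc calls also ended without a filter on dim probes. With shActb_1 the count that rose (4) was 5 with normexp, 2 with the compared arrays only and 1 over 2-fold. Actn1 also passed with the all-array filter and the variance trend, and the Vcl call ended without a filter. With shActb_2 the count that rose (8) was 4 after quantile normalization and 1 over 2-fold. The count that fell (1) was 0 without a filter and over 2-fold. Without a filter the Tln1 and Actn1 calls ended as well. For Srf against Mkl1 the higher count (0) was 1 after quantile normalization and with the variance trend, and the lower count (5) was 3 over 2-fold. Between the hairpins the higher count (2) was 1 with the compared arrays only and 0 over 2-fold, and the lower count (0) was 1 with normexp, the all-array filter, the compared arrays only and the variance trend, and 2 after quantile normalization. For Mkl1 against the mean of the hairpins the higher count (0) was 1 with normexp, the all-array filter and the variance trend. The share of all named genes that rose moved too. In the main fit, with normexp and after quantile normalization it was 28.2%, 29.5% and 19.4% with shActb_2. In that order it was 17.7%, 19.2% and 15.2% with Mkl1, and 7.79%, 8.12% and 5.38% with shActb_1. In the Srf comparison it was 17.4%, 18.8% and 19.8%. Shares under the remaining settings are not given here. The compared-arrays fits have fewer arrays to estimate the spread from, by construction. For the other settings the cause was not tested.

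With each array left out in turn a group kept 1 array, so differences and no counts are given for those fits here. Calls that ended with an array left out are named with the genes above. A few small differences that did not pass the test turned sign. Flna on the arrays labelled Srf was 0.0066 after quantile normalization and -0.088 to 0.0055 over left-out arrays, Actn1 there -0.17 to 0.44, Filip1l -0.17 to 0.00042 for Mkl1 and -0.22 to 0.063 for shActb_1, and Flnc -0.094 to 0.053 for shActb_1. The dim Tln1 probe was 0.094 after quantile normalization for Mkl1 (-0.27 to 0.25 over left-out arrays), 0.024 with normexp and 0.056 after quantile normalization for shActb_1 (-0.22 to 0.22), and -0.0063 with normexp for shActb_2 (-0.21 to 0.23). Vcl in Mkl1 against the hairpins was -0.066 to 0.29. The deposited log2 table changed none of the 56 reported differences in call or sign.

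The replicate numbers of the titles were not taken to pair the arrays, because over 29232 probes the deviations of same-numbered arrays correlated over 0.1 in only 6 of 15 pairs of groups (range -0.138 to 0.261, and 0.261 for EGFP with Srf, 0.161 for EGFP with Mkl1 and 0.234 for shEGFP with shActb_2). With the replicate number as a block the count that fell on the arrays labelled Srf was 2 instead of 1 (Filip1l joining), the Tln1 calls for Mkl1 and shActb_2 no longer passed (adjusted p = 0.0539 and 0.0536), and no other call changed.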

Other observations

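The 2 lists of related genes were also compared between the treatments. Of the other focal adhesion genes, 17 of 48 tested were lower on the arrays labelled Srf than on the Mkl1 arrays and 6 were higher (median difference -0.17), where 20% of all named genes were lower and 14.4% higher. Of the other crosslinkers and bundlers, 12 of 37 were lower and 6 higher (median -0.09). Between the hairpins, 4 of 47 focal adhesion genes were higher with shActb_2 and 6 lower, and 8 of 36 crosslinkers were higher and 4 lower, where 21% of all named genes were higher and 12.4% lower. When the response to Mkl1 was set against the mean response to both hairpins, 1 of 47 focal adhesion genes was higher and 1 lower, and 3 of 37 crosslinkers were higher and 1 lower, where 1.69% of all named genes were higher and 1.89% lower.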
